A study of Mus musculus with 30 samples.

Results

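Cyclins, cyclin-dependent kinases (Cdks) and other genes named for the cell division cycle were followed in the left ventricle of mice. Members were the genes whose symbol begins with Ccn and a further letter, Cdk, Cdc and a digit, Plk, Aurk, Bub or E2f, or is Mcm2 to Mcm7, each read from its brightest probe set over all arrays. The rule used no measured difference between groups and found 80 genes among the 8251 named on the array, covered by 105 probe sets. A cyclin switches on the Cdk it binds, and D and E cyclins drive entry into S phase. Cyclins of type A act in S phase, those of types A and B with Cdk1 drive mitosis, and Cdkn proteins hold Cdks back. E2F factors switch on the genes of DNA replication, among them the Mcm subunits that unwind DNA, and the polo-like, Aurora and Bub kinases run mitosis. Cardiac muscle cells leave this cycle soon after birth, while the other cells of the ventricle can still divide. Many genes with such names have other work: cyclins C and T and Cdk7 to Cdk9 act in transcription, Cdk5 is best known from neurons, and Cdc37 serves protein folding.

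The arrays compared HCM with wild-type C57BL/6 mice of both sexes, fed a casein-based or a soy-based diet until 2 months of age. The labels neither spell out HCM, the usual short form of hypertrophic cardiomyopathy, nor name a mutation, a transgene or its promoter. Each sample pooled RNA of 2 animals. Females and males of casein HCM had 4 arrays each, those of soy HCM 3 each, and those of casein wild type and of soy wild type 4 each, 30 arrays in all. Values are log2 expression, so a difference of 1 is a doubling, and errors of differences are standard errors. A member was called higher or lower where limma's Benjamini-Hochberg adjusted p, taken over all 8251 genes, was under 0.05. The labels do not say whether samples came from separate litters or cages, and p-values measure only the spread between these pooled samples.

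Array medians lay between 6.11 and 6.22. Hybridization and labelling controls differed in level between sets of arrays that follow diet and genotype. The control RNA Dap read 7.19 to 8.07 on the 8 casein HCM arrays and 4.03 to 4.70 on all others, and the casein wild-type arrays fell into set A, which held replicates 1 and 2 of each sex, and set B, which held replicates 3 and 4. Every HCM or diet comparison sets whole sets of arrays against each other, so set and condition cannot be told apart there, while females and males are balanced in each set. Set A against set B alone, within casein wild type, called 14 of the 80 members, beside 12% of all genes. Male soy wild-type replicate 2 stood apart from its group for several members. The muscle genes were high throughout, as the tissue label has it: the mean level of 7 ventricular cardiomyocyte markers was between 12.2 and 13.1 on every array. In such bulk tissue, fewer cells of a type and less RNA per cell cannot be told apart.

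Division genes differed between HCM and wild type about as often as other genes, in both directions, as the shares beside each count show. On casein, HCM ventricles had 19 members higher and 21 lower, 40 of the 80, beside 49.6% of all genes (26.9% higher and 22.7% lower). On soy they had 9 higher and 13 lower, 27.5%, beside 25% of all genes (12.3% higher and 12.7% lower). No arrays are shared by these comparisons, and 10 members were called in both, which is 25% of those called on casein and 45.5% of those called on soy. Ccng1 was higher on both diets, and Mcm5 and Ccnt1 were lower on both. The other 7, Plk1, Cdc26, Cdc37, Cdc73, Ccnc, Cdk2ap2 and Cdk5r2, moved in opposite directions. Of all 8251 genes 1140 were called on both diets, 27.9% of the casein list and 55.3% of the soy list, with 313 in the same and 827 in opposite directions. Averaged over sex and diet, HCM had 15 higher and 16 lower, 38.8% of members beside 34.1% of all genes. When the array set was fitted as a random block, 28 members remained called on casein and 2 on soy, Ccnd2 (adjusted p = 0.00177) and Cdkn2d (0.0284). The correlation for that block comes from casein wild type, the only condition split into sets, and is the same for all genes. On soy the block widens the errors and cannot measure or remove a set effect. Counts with the block, with centring or with arrays left out, here and below, have no share of all genes beside them. They are not read as a result about these genes. Of the 40 called on casein, 11 lost the call against wild-type set A alone and 4 against set B alone, and none changed sign. Where a set moved the casein value of a named member called there by over 1.5 times, both set values are given. For members not called on casein, set values are given for some only. Members called for HCM that lie among the dimmest 40% of genes include Ccnc, Ccne2, Cdc6, Cdc73, Cdk5r1, Cdkn1b and Plk4. Whether such dim members were detected above background was not called.

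**Figure D1:**
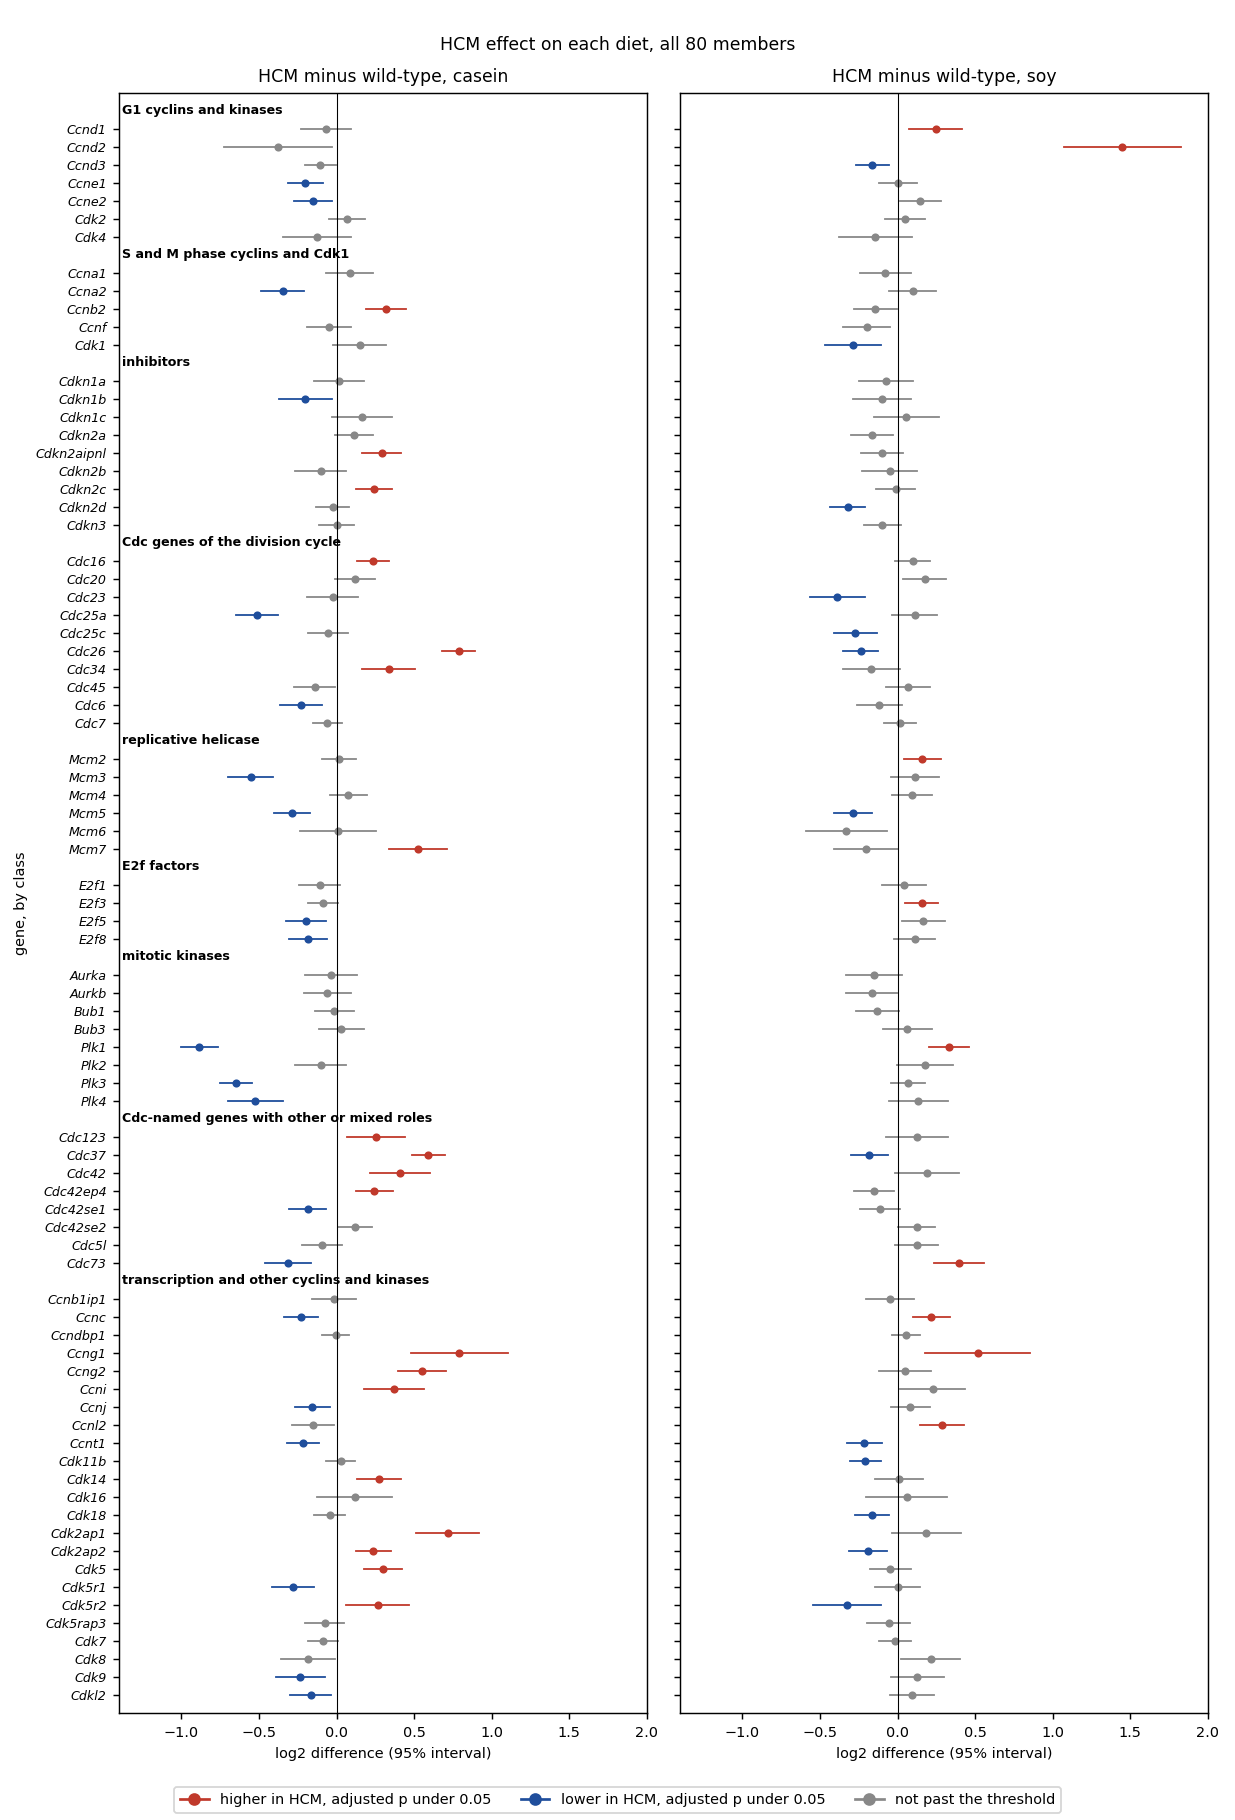
HCM minus wild-type log2 difference of every member on casein (left) and on soy (right), grouped by class; points are limma estimates, lines are 95% intervals, and colour marks an adjusted p under 0.05. On casein Plk1 lies furthest left, at -0.88, and on soy Ccnd2 lies furthest right, at 1.45.

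Among the G1 genes, which carry a cell from rest towards DNA synthesis, Ccnd2 had the largest HCM difference of any member. Ccnd2 encodes cyclin D2, a partner of Cdk4 and Cdk6. On soy its level was 7.81, 8.26 and 8.43 in HCM females and 8.05, 8.04 and 8.36 in HCM males. It was 6.82, 6.42, 6.86 and 7.02 in wild-type females and 6.74, 6.63, 6.52 and 6.68 in wild-type males. All 6 soy HCM arrays thus lay above all 8 soy wild-type arrays, with no overlap in either sex. The difference was 1.45 ± 0.18 (adjusted p = 3.68e-06) and stayed between 1.38 and 1.54 when any 1 array was left out.

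On casein the same gene showed another pattern. The 8 casein HCM arrays were tightly grouped, from 6.79 to 6.93. The casein wild-type females read 7.59, 7.85, 6.28 and 6.12 and the males 7.68, 7.47, 7.14 and 7.89, in replicate order. HCM lay inside the wide wild-type range, with a difference of -0.38 ± 0.17 (95% interval -0.73 to -0.03, adjusted p = 0.0675). The wild-type females split by array set, with both of set A above both of set B, while the males of the sets overlapped and the highest array of all, 7.89, was in set B. Over both sexes set A averaged 7.65 and set B 6.86 (0.79 ± 0.14, adjusted p = 0.00545). Against set A alone the HCM difference on casein was -0.77 (adjusted p = 1.85e-06), and against set B alone 0.02 (adjusted p = 0.916). The HCM difference on casein minus that on soy was -1.83 ± 0.25 (adjusted p = 1.49e-06), -2.22 with set A and -1.43 with set B.

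**Figure D2:**
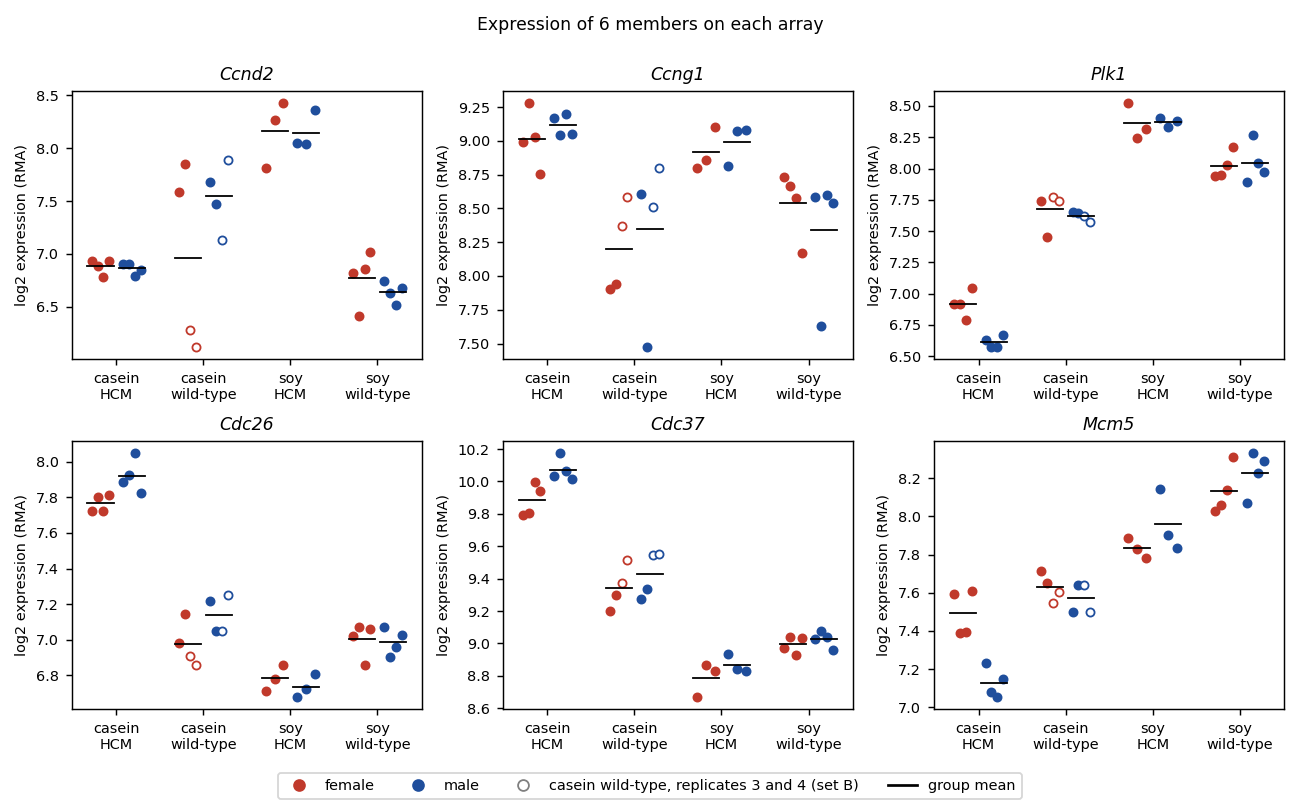
Log2 expression of Ccnd2, Ccng1, Plk1, Cdc26, Cdc37 and Mcm5 on each array by diet and genotype; females stand left of males, open points are casein wild-type replicates 3 and 4, and bars are group means. Ccnd2 is high in soy HCM, Cdc26 and Cdc37 are high in casein HCM, and the Ccnd2 points of casein wild-type females split by set.

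The other G1 genes moved less. Ccnd1, cyclin D1, was higher in HCM on soy by 0.25 ± 0.08 (adjusted p = 0.0315), and Ccnd3, cyclin D3, was lower there (-0.16 ± 0.05, adjusted p = 0.0234). Ccne1 and Ccne2, the E cyclins that act with Cdk2 at the start of S phase, were both lower in HCM on casein, at -0.20 ± 0.06 and -0.15 ± 0.06; neither call held with the set as a random block, and Ccne2 was at -0.10 against set A and -0.20 against set B. Cdk4, the kinase of the D cyclins, averaged 8.89 in casein HCM and 9.02 in casein wild type (95% interval of the difference -0.34 to 0.09), and passed in no comparison of HCM, diet or sex. It did differ between the wild-type sets (-0.36 for set A minus set B, adjusted p = 0.0124), and the HCM difference was 0.06 against set A and -0.31 against set B (adjusted p = 0.0448). In all, 2 of the 7 G1 genes were lower on casein, and 2 were higher and 1 lower on soy. Of all genes 22.7% were lower on casein, and 12.3% were higher and 12.7% lower on soy.

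Of the 5 S and M phase genes, Ccna2 was lower and Ccnb2 higher in HCM on casein. Ccna2, the cyclin A2 of S phase, read 7.22 to 7.60 (median 7.47) on casein HCM arrays and 7.58 to 8.11 (median 7.73) on casein wild-type arrays, ranges that cross at their ends (-0.35 ± 0.07, adjusted p = 0.000105; -0.48 against set A and -0.22 against set B). Ccnb2, cyclin B2, averaged 6.53 in casein HCM and 6.21 in casein wild type (0.32 ± 0.06, adjusted p = 0.00016; 0.19 against set A and 0.45 against set B). On soy the only call was Cdk1, the mitotic kinase, lower in HCM by a log2 change of -0.29 ± 0.09 (adjusted p = 0.0202, 0.255 with the set as a random block). Ccna1 and Ccnf passed in none of the main comparisons.

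The Cdkn class held 9 genes, of which Cdkn3 encodes a phosphatase and Cdkn2aipnl a relative of an Arf-binding protein rather than an inhibitor. Cdkn2d (p19, an inhibitor of Cdk4 and Cdk6) was lower in HCM on soy: 7.73 to 8.04 (median 7.96) on HCM arrays and 8.16 to 8.28 (median 8.25) on wild-type arrays, with no overlap (-0.32 ± 0.06, adjusted p = 0.000155). On casein it averaged 8.37 in HCM and 8.39 in wild type, and the difference between the diets was 0.30 ± 0.08 (adjusted p = 0.00205). Cdkn2c, p18 of the same family, was higher in HCM on casein (0.24 ± 0.06, adjusted p = 0.000973), and Cdkn1b, p27, was lower by a narrow margin (-0.20 ± 0.08, adjusted p = 0.0492). The Cdkn1b value was -0.35 against set A (adjusted p = 0.00425) and -0.05 against set B (adjusted p = 0.655), and its adjusted p was 0.210 with the array set as a block. Cdkn1a, p21, a target of p53, averaged 7.98 in casein HCM and 7.97 in casein wild type. Its 95% interval ran from -0.15 to 0.18 on casein and from -0.25 to 0.10 on soy.

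Ccng1, a p53 target that encodes cyclin G1, was the member with the largest rise on average over both diets. It ranged from 8.75 to 9.28 (median 9.04) in casein HCM and from 7.47 to 8.80 (median 8.44) in casein wild type, which cross at 1 HCM and 1 wild-type array. In soy HCM it ranged from 8.80 to 9.10 (median 8.96), against 7.63 to 8.73 (median 8.58) in soy wild type, with no overlap. The differences were 0.79 ± 0.15 on casein (adjusted p = 0.000101) and 0.52 ± 0.16 on soy (adjusted p = 0.0228). The casein value was 1.08 against wild-type set A and 0.50 against set B. The soy value passed or failed by 1 array: without any of 4 single arrays its adjusted p was between 0.0522 and 0.0642, and without male soy wild-type replicate 2, which read 7.63, the difference was 0.40. Its relative Ccng2 was higher on casein (0.55 ± 0.08, adjusted p = 1.16e-06) and at 0.05 ± 0.08 on soy (adjusted p = 0.703).

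Among the 10 Cdc genes of the division cycle, members of 1 complex did not move together. Cdc26, Cdc16 and Cdc23 encode subunits of the anaphase-promoting complex, which marks mitotic proteins for destruction, and Cdc20 its activator. Cdc26 was 7.73 to 8.05 (median 7.82) in casein HCM and 6.86 to 7.25 (median 7.05) in casein wild type, a clear gap (0.79 ± 0.05, adjusted p = 2.33e-12). On soy the order was turned round, with 6.68 to 6.86 (median 6.75) in HCM and 6.86 to 7.07 (median 7.02) in wild type, apart by a narrow margin (-0.24 ± 0.05, adjusted p = 0.0026, 0.114 with the set as a random block). Cdc16 was higher on casein (0.23 ± 0.05). Cdc23 was lower on soy (-0.39 ± 0.09, adjusted p = 0.00199), though its other probe set read 0.15 there. Cdc20 was at 0.12 ± 0.06 on casein and 0.17 ± 0.07 on soy and passed on neither. Averaged over sex and diet, limma called Cdc20 higher in HCM (0.145, adjusted p = 0.0162). Its casein wild-type sets differed, at 7.07 in set A and 6.79 in set B (limma adjusted p = 0.0427). The casein HCM mean of 7.05 lay between them.

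Cdc25a, the phosphatase that frees Cdk2 and Cdk1 from inhibition, averaged 7.06 in casein HCM and 7.57 in casein wild type, and no arrays overlapped (-0.51 ± 0.07, adjusted p = 3.05e-07). Its other probe set, like those of Ccnd1 and Cdkn1b, is not given here. Of 10 other probe sets of members called for HCM on casein, 1 was called in the same direction, 3 in the opposite and 6 not. Cdc6, which loads the Mcm helicase at origins of replication, was lower in casein HCM (-0.23 ± 0.07, adjusted p = 0.00469), at -0.14 against set A (adjusted p = 0.138) and -0.32 against set B. Cdc34, a ubiquitin-conjugating enzyme that works with SCF ligases, was higher (0.34 ± 0.08, adjusted p = 0.00144; 0.52 against set A and, with adjusted p = 0.126, 0.16 against set B), but its other probe set was lower (-0.23 ± 0.06). Cdc7 and Cdc45, which start the helicase, did not pass for HCM on either diet.

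The 6 subunits of the replicative helicase, which act as a ring, also went separate ways. Mcm3 was 6.31 to 6.56 (median 6.43) in casein HCM and 6.48 to 7.37 (median 7.02) in casein wild type; only the lowest wild-type array reached the HCM range (-0.55 ± 0.07, adjusted p = 2.97e-07). Mcm7 was higher in casein HCM by 0.52 ± 0.09 (adjusted p = 3.15e-05). Mcm5 was lower by the same amount on each diet, -0.29 ± 0.06 on casein (adjusted p = 0.000108) and -0.29 ± 0.06 on soy (adjusted p = 0.00126). Mcm2 was higher on soy by 0.16 ± 0.06, and Mcm4 and Mcm6 passed on neither diet. The Mcm5 and Mcm3 values rest on their brightest probe sets: the other Mcm5 probe set read 0.09 ± 0.08 on casein and -0.11 ± 0.09 on soy, and the other Mcm3 probe set -0.14 on casein, none of them past the threshold.

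Promoter windows of these genes are shown because the helicase subunits and their neighbours in the cycle are textbook E2F targets, yet moved in different directions. Windows came from RefSeq (GRCm38.p6), and 68 of the 80 members had an entry, with 81 windows. The 250 bases before each start were searched on both strands for 4 E2F words, TTTGGCGC, TTTCCCGC, TTTGCCGC and TTTCGCGC, which can overlap each other where read on opposite strands. At least 1 word stood in 11.11% of member windows, 2.94% of windows of all array genes and 1.86% of all promoter windows. The 9 members with a match were Cdc25a, Cdc6, Cdk1, Cdk2, Cdkn2a, E2f3, Mcm5, Mcm6 and Mcm7. The 180 bases before the start are printed 5′ to 3′ on the gene's strand for 5 of them, at chr9:109875399-109875578 (Cdc25a, plus strand), chr10:69352913-69353092 (Cdk1, minus), chr8:75109329-75109508 (Mcm5, plus), chr1:128359706-128359885 (Mcm6, minus) and chr5:138171884-138172063 (Mcm7, minus). Capitals mark the words on either strand.
Cdc25a: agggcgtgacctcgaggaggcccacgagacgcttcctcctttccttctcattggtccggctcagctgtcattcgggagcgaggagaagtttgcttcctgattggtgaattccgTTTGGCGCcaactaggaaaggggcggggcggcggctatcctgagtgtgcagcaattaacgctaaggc
Cdk1: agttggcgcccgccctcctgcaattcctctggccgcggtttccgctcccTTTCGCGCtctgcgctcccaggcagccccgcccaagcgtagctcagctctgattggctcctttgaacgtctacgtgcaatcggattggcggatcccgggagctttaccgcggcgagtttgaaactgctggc
Mcm5: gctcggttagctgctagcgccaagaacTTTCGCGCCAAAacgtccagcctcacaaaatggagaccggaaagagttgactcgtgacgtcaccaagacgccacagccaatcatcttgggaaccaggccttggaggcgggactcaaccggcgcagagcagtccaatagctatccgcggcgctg
Mcm6: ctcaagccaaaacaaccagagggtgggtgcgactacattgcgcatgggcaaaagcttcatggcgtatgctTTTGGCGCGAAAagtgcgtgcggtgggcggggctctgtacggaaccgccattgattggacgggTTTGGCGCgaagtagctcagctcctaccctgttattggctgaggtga
Mcm7: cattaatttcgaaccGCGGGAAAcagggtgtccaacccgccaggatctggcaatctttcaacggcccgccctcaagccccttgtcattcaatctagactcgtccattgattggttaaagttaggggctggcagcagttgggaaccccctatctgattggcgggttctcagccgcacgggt

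Mcm5 and Mcm6 carry overlapping words on both strands in the stretch in capitals, and Mcm6 a further word nearer the start. Of the 9 genes with a match, Cdc25a, Cdc6 and Mcm5 were lower in HCM on casein, Mcm7 was higher, and the other 5 did not pass. On soy Cdk1 and Mcm5 were lower and E2f3 higher. A match describes these letters only.

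The 4 E2f genes measured, all among the dimmest 40% of genes, showed small differences. E2f5, a repressor, and E2f8, an atypical repressor, were lower in HCM on casein (-0.20 ± 0.06 and -0.18 ± 0.06), and neither was called with the set as a random block. E2f3, an activator, was higher on soy (0.16 ± 0.05, adjusted p = 0.0279). E2f1, the founding activator, was at -0.11 ± 0.07 on casein and 0.04 ± 0.07 on soy. E2f1 and E2f8 have 2 probe sets each, of which only the brightest is given here.

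The 8 polo-like, Aurora and Bub genes were grouped as mitotic kinases, although Bub3 is a checkpoint partner and no kinase. Of these, 3 polo-like kinases were lower in casein HCM, beside 22.7% of all genes. The Aurora and Bub genes passed on neither diet. Plk1, which drives entry into and passage through mitosis, read 6.92, 6.92, 6.79 and 7.05 in casein HCM females and 6.63, 6.58, 6.57 and 6.67 in casein HCM males. Casein wild-type females read 7.74, 7.45, 7.78 and 7.74 and males 7.65, 7.64, 7.62 and 7.57. The groups were far apart (-0.88 ± 0.06, adjusted p = 2.99e-12), and the value was -0.86 against set A and -0.91 against set B. On soy HCM was higher, with 8.24 to 8.52 (median 8.35) in HCM and 7.89 to 8.27 (median 8.0) in wild type, which overlap slightly (0.33 ± 0.06, adjusted p = 0.000412, 0.0523 with the set as a random block).

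Plk1 has 3 probe sets on this array, and they disagreed. Of the other probe sets, the first was at -0.01 ± 0.06 on casein and -0.38 ± 0.07 on soy, the opposite sign to the brightest; the second was at -0.21 ± 0.07 on casein (adjusted p = 0.0119 over all probe sets) and 0.10 ± 0.07 on soy. The suffix of the brightest Plk1 probe set, which the dimmest also carries, marks probes that Affymetrix found to match a family of similar sequences. Plk3, a stress-responsive polo-like kinase, was 10.09 to 10.49 (median 10.33) in casein HCM and 10.83 to 11.15 (median 10.95) in casein wild type, with no overlap (-0.65 ± 0.05, adjusted p = 3.08e-11). Plk4, the kinase that starts centriole duplication, was 3.98 to 4.82 (median 4.51) in casein HCM and 4.81 to 5.16 (median 4.97) in casein wild type, crossing at their ends (-0.52 ± 0.09, adjusted p = 1.27e-05). On soy Plk3 was at 0.07 ± 0.05 and Plk4 at 0.13 ± 0.09. For Aurka, Bub1 and Bub3 the 95% intervals on casein lay within -0.20 and 0.18.

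**Figure D3:**
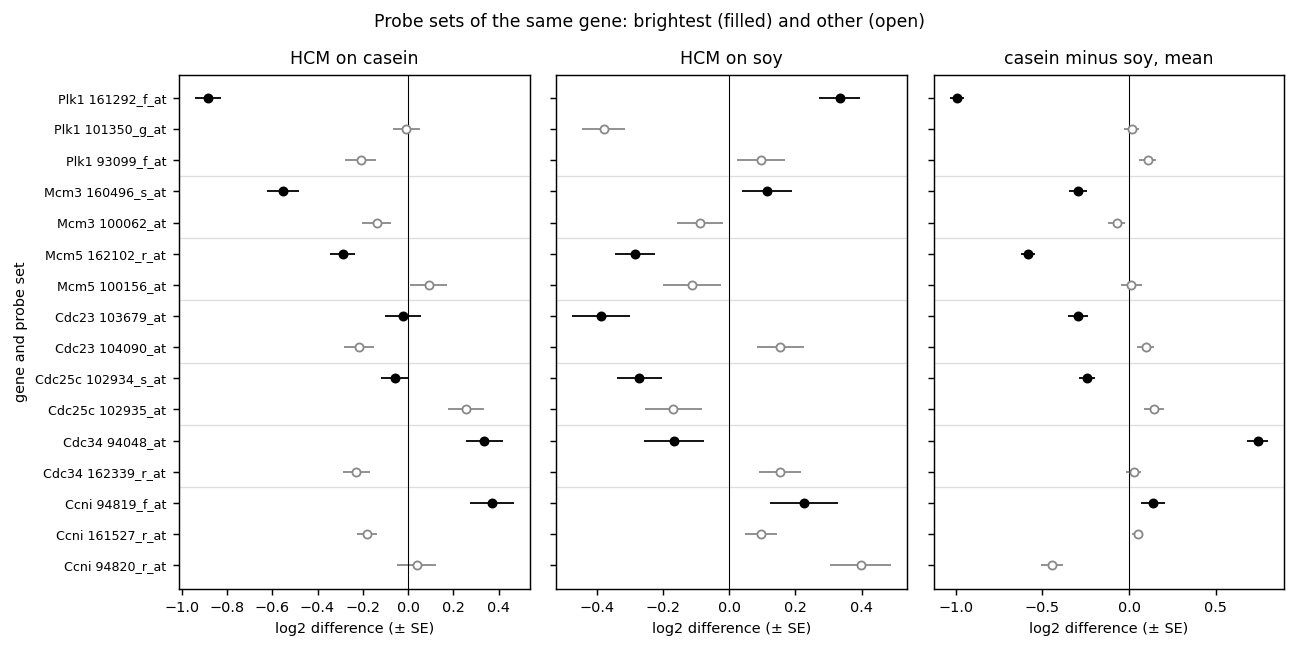
Log2 differences (± SE) of all probe sets of 7 members for HCM on casein, HCM on soy and casein minus soy; filled points are the brightest probe set, which stands for the gene, and open points the others. The other Mcm5 probe set passes in none of the comparisons drawn. Of the other Plk1 probe sets, 1 is opposite to the brightest on soy, at -0.38, and 1 has its sign on casein, at -0.21.

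Cdc-named genes with other roles had 4 higher and 2 lower of 8 in casein HCM, or 3 higher and 1 lower when the array set was a random block. Of all genes 26.9% were higher and 22.7% lower there without the block. Cdc37, which brings kinases to the chaperone Hsp90, was 9.79 to 10.18 (median 10.01) in casein HCM and 9.20 to 9.55 (median 9.35) in casein wild type, with no overlap (0.59 ± 0.05, adjusted p = 5.57e-10). On soy it was lower in HCM, at 8.67 to 8.94 (median 8.84) against 8.93 to 9.07 (median 9.03) in wild type, which cross at their ends (-0.18 ± 0.06, adjusted p = 0.0217). Cdc73, a subunit of the Paf1 complex of transcription, was lower on casein (-0.31 ± 0.07, adjusted p = 0.000794). On soy it was higher, 4.44 to 4.85 (median 4.66) in HCM and 3.95 to 4.41 (median 4.32) in wild type, without overlap (0.40 ± 0.08, adjusted p = 0.00066, 0.0647 with the set as a random block).

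The transcription and other cyclins and kinases, 23 genes, had 8 higher and 6 lower in HCM on casein, and 3 higher and 5 lower on soy. Of all genes 26.9% were higher and 22.7% lower on casein, and 12.3% higher and 12.7% lower on soy. Besides the G cyclins described above, Cdk2ap1, which binds Cdk2, was higher on casein: 9.56 to 9.87 (median 9.66) in HCM and 8.61 to 9.30 (median 8.96) in wild type, with no overlap (0.72 ± 0.10, adjusted p = 1.23e-06; 0.93 against set A and 0.50 against set B). Cdk5 was higher on casein (0.30 ± 0.06; 0.41 against set A and 0.19 against set B) while its activator Cdk5r1 was lower (-0.28 ± 0.07). Its other activator Cdk5r2 was higher on casein (0.26 ± 0.10; adjusted p = 0.126 against set A alone and 0.0691 against set B alone) and lower on soy (-0.32 ± 0.11, adjusted p = 0.0282), a soy value that lost its call without any of 6 single arrays. Ccnt1, the partner of Cdk9 in transcript elongation, was 7.21 to 7.35 (median 7.29) in casein HCM and 7.30 to 7.66 (median 7.50) in casein wild type, which overlap at their ends. In soy HCM it was 7.11 to 7.28 (median 7.20), and in soy wild type 7.28 to 7.47 (median 7.42). It was lower in HCM by -0.22 ± 0.05 on casein and -0.21 ± 0.06 on soy. Its wild-type sets differed (7.37 in set A and 7.63 in set B, adjusted p = 0.0368), and the casein value was -0.09 against set A (adjusted p = 0.145) and -0.34 against set B. Cdk9 was lower on casein (-0.23 ± 0.08), at -0.09 against set A (adjusted p = 0.397) and -0.37 against set B. Ccnc, of the Mediator kinase module, was lower on casein (-0.23 ± 0.05) and higher on soy (0.22 ± 0.06).

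**Figure D4:**
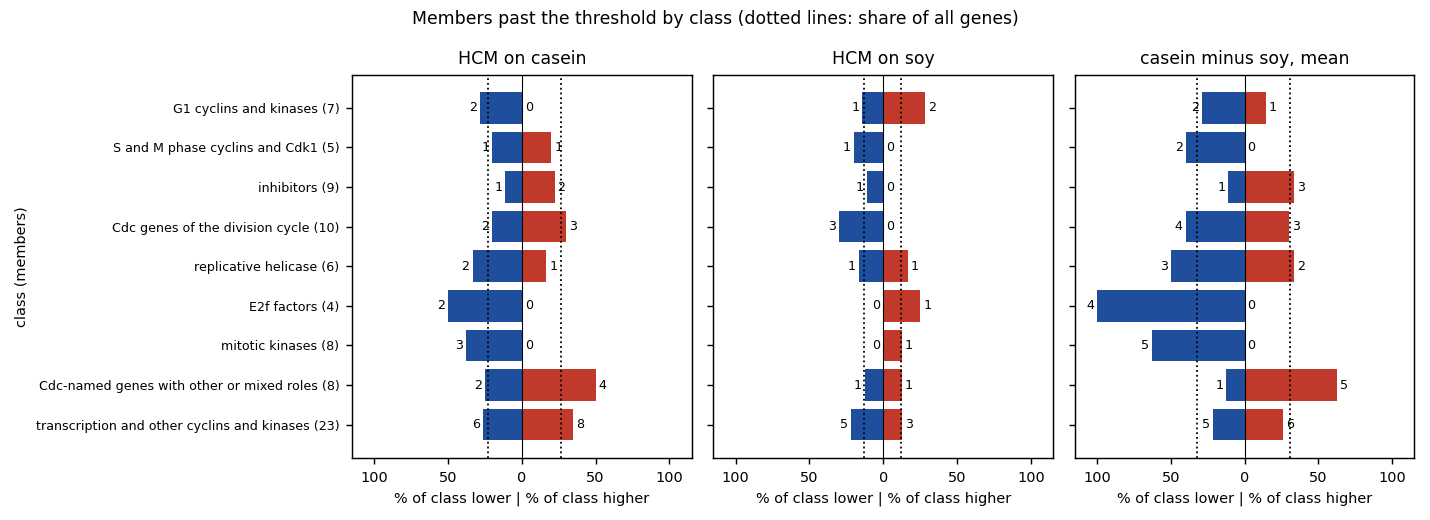
Share of each class higher (right, red) and lower (left, blue) at an adjusted p under 0.05, with counts at the bar ends, for HCM on casein, HCM on soy and casein minus soy; dotted lines are the shares of all genes in each direction. The mitotic kinases have 3 lower and none higher in HCM on casein, and all 4 E2f genes are lower on casein than on soy.

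The change of the HCM difference with diet was itself tested. The interaction, the HCM difference on casein minus that on soy, passed for 40 members (19 positive, 21 negative), beside 45.1% of all genes, and for 20 with the set as a random block. The largest besides Ccnd2 were Plk1 (-1.22 ± 0.09), Cdc26 (1.02 ± 0.07), Cdc37 (0.77 ± 0.08), Mcm7 (0.73 ± 0.14), Plk3 (-0.72 ± 0.07) and Cdc73 (-0.71 ± 0.11). For Mcm5 and Ccnt1 it was -0.00 ± 0.08 each, and for Ccnt1 0.12 with set A alone and -0.13 with set B alone. Since casein HCM arrays stand on 1 side of it only, the set of those arrays and the interaction cannot be told apart.

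Diet was compared as casein minus soy. Averaged over sex and genotype, 20 members were higher and 27 lower on casein, 58.8% beside 62.9% of all genes (30.9% higher and 32% lower). Centring each array on its median turned that split to 28 higher and 22 lower. Cdc37 was 9.20 to 10.18 (median 9.67) on the 16 casein arrays and 8.67 to 9.07 (median 8.95) on the 14 soy arrays, with no overlap (0.76 ± 0.04, adjusted p = 2.78e-15). Cdc34 was higher by 0.74 ± 0.06 (adjusted p = 3e-11), with 8.39 to 9.33 (median 9.04) on casein and 7.96 to 8.51 (median 8.25) on soy, a small overlap; its other probe set was at 0.03. Cdc123, a factor for assembly of translation initiation factor eIF2, was 7.33 to 7.94 (median 7.53) on casein and 6.23 to 7.26 (median 6.95) on soy, without overlap (0.64 ± 0.07, adjusted p = 2.8e-09).

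Lower on casein were Plk3, at 10.09 to 11.15 (median 10.66) against 11.53 to 11.81 (median 11.65) on soy, and Plk1, at 6.57 to 7.78 (median 7.25) against 7.89 to 8.52 (median 8.21) on soy. Neither overlapped, and the differences were -1.04 ± 0.04 (adjusted p = 1.93e-18) and -0.99 ± 0.04 (adjusted p = 1.49e-16). The other Plk1 probe sets were at 0.01 and 0.11 and did not pass. Mcm5 was 7.05 to 7.71 (median 7.53) on casein and 7.78 to 8.33 (median 8.06) on soy, also without overlap (-0.58 ± 0.04, adjusted p = 1.21e-12), while its other probe set was at 0.01 ± 0.06. Ccna2 was 7.22 to 8.11 (median 7.59) on casein and 8.01 to 8.43 (median 8.27) on soy, a small overlap (-0.63 ± 0.05, adjusted p = 1.07e-11). Of the 8 members read by a probe set whose name carries a suffix letter, a split made after the values were seen, 7 were lower and 0 higher on casein, against 20 lower and 20 higher of the 72 without one. For HCM on casein 1 of these 8 was higher and 5 lower, against 18 higher and 16 lower of the 72. The 8 were Ccni, Cdc25c, E2f1, E2f8, Mcm3, Mcm5, Plk1 and Plk3, and Plk3 has no other probe set. Their letters were f, r or s and were not told apart. No share of all probe sets with such a letter stands beside these counts. The split is not read as a result, and a part of probe design in the diet differences was not tested.

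By class, 5 of 8 mitotic kinase genes and 4 of 4 E2f genes were lower on casein and none higher. Of all genes 32% were lower and 30.9% higher. With centring the class counts were 3 lower and 1 higher (Aurka) of 8 mitotic kinase genes, and 3 of 4 E2f genes lower. Fitting the array set as a random block left 3 of 8 and 3 of 4 lower. E2f1 (-0.34 ± 0.05), E2f8 (-0.32 ± 0.04) and E2f5 (-0.24 ± 0.05) stayed lower under each scaling, and E2f3 (-0.10 ± 0.03) did not keep its call. These values rest on the brightest probe sets, and the other probe sets of E2f1 and E2f8 are not given here. For casein minus soy, 2 of the 12 other probe sets of called members were called in the same direction. Cdc-named genes with other roles had 5 higher and 1 lower of 8, beside the same 30.9% and 32% of all genes. Within HCM, 45 members were called (20 higher, 25 lower; 27 and 23 with centring) beside 62.1% of all genes, and within wild type 37 (18 higher, 19 lower; 25 and 12 with centring) beside 47%. With the set as a random block 19 of the wild-type calls remained, none of them a G1 gene. These comparisons share no arrays. Of the 25 members called in both, 55.6% of the HCM list and 67.6% of the wild-type list, 21 had the same sign; over all genes 2651 were called in both, 51.8% and 68.4% of the lists, and 79.2% of them had the same sign. Ccnc, Ccnd2, Ccng2 and Cdc25a had opposite signs. Ccnd2 was lower on casein in HCM (-1.28 ± 0.18) and higher in wild type (0.54 ± 0.17, adjusted p = 0.0102, 0.0800 with the set as a random block; 0.94 with wild-type set A alone and 0.15 with set B alone). Cdc26 was higher on casein in HCM by 1.09 ± 0.05 and was at 0.06 ± 0.05 in wild type.

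Few differences between females and males were found in these genes. Averaged over diet and genotype, limma called 0 members between females and males, beside 0.267% of all genes, and 4 members had an unadjusted p under 0.05. All 80 differences lay between -0.12 and 0.11. The member with the smallest p was Cdc37 (-0.10 ± 0.04, adjusted p = 0.489), at 8.67 to 10.00 (median 9.20) in females and 8.83 to 10.18 (median 9.27) in males. Within groups the only call was Mcm5 in casein HCM, beside 0.485% of all genes. Females read 7.59, 7.39, 7.39 and 7.61 there and males 7.23, 7.08, 7.05 and 7.15, with no overlap (0.37 ± 0.08, adjusted p = 0.0351). The tests of a sex difference in the HCM effect and in the diet effect each called 0 members and 0% of all genes. They had 5 and 11 members at an unadjusted p under 0.05. These unadjusted counts, and the 4 for the average, have no share of all genes beside them. They are not read as a result about these genes.

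In all, 13 members passed in none of the 8 comparisons of HCM, diet and sex: Aurka, Bub1, Bub3, Ccna1, Ccnb1ip1, Ccnf, Cdc7, Cdk16, Cdk4, Cdk5rap3, Cdkn1a, Cdkn1c and Mcm6. Of these Cdk4 and Cdk16 differed between the casein wild-type sets. A further list of 101 division genes without such names, 85 of them measured, had 31 higher and 13 lower in HCM on casein, 36.5% and 15.3% beside 26.9% and 22.7% of all genes, and 10 higher and 7 lower on soy, 11.8% and 8.24% beside 12.3% and 12.7%. Of its proliferation markers, Mki67 was lower in HCM on casein (-0.38 ± 0.09, adjusted p = 0.00163) and at -0.13 ± 0.10 on soy, while Pcna was higher on casein (0.32 ± 0.09, adjusted p = 0.00669). Top2a passed on neither diet.

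Markers of other cell types moved with the same comparisons. On casein, 5 of 6 smooth muscle and pericyte markers were higher in HCM, with a mean level of 7.63 to 8.02 on casein HCM arrays and 7.005 to 7.44 on casein wild-type arrays. For macrophages 4 of 7 were higher and 1 lower (7.49 to 7.955 in HCM, 7.355 to 7.55 in wild type), for fibroblasts 5 higher and 1 lower of 8 (8.25 to 8.82 in HCM, 7.92 to 8.37 in wild type), and for endothelium 0 higher and 4 lower of 7 (7.63 to 7.86 in HCM, 7.94 to 8.11 in wild type). On soy, 3 of 7 endothelial markers were higher in HCM (7.99 to 8.13 in HCM, 7.395 to 7.99 in wild type) and 0 of 7 macrophage markers passed. All 7 ventricular cardiomyocyte markers were higher in HCM on soy (12.7 to 12.81 in HCM, 12.24 to 12.59 in wild type), and on casein 4 were higher and 1 lower (12.9 to 13.05 in HCM, 12.77 to 12.94 in wild type). Of 4 atrial markers 3 were higher in HCM on casein (7.51 to 8.58 in HCM, 6.82 to 7.65 in wild type), and 2 were lower on soy (7.17 to 7.695 in HCM, 7.47 to 8.01 in wild type). For casein minus soy, averaged over sex and genotype, 6 of 7 cardiomyocyte markers were higher (12.77 to 13.05 on casein, 12.24 to 12.81 on soy), as were 5 of 6 smooth muscle and pericyte markers (7.005 to 8.02 on casein, 6.95 to 7.30 on soy) and 4 of 7 macrophage markers, with 2 lower. Within wild type all 7 cardiomyocyte markers were higher on casein. The part of cell type content in the results for division genes was not tested.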

How the data were processed

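Left ventricle RNA of C57BL/6 mice was measured on Affymetrix MG_U74Av2 arrays. Per the submitters' processing notes, the authors summarised each probe set to a log2 value with RMA in Expression Console; no version or option is named in the sources used here. As usually run, RMA includes a background correction and quantile normalization. Scanner files were not used here, so detection above background was not called, and the number of arrays limits the precision.

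Of 12488 probe sets, 66 were controls, 10833 had 1 gene symbol, 396 several and 1193 none in the platform annotation; 10817 were found in the current gene table and 0 symbols changed. Genes with several probe sets were read from the brightest, which left 8251 genes. Of the 80 members 21 had several probe sets, and 54 (67.5%) lay outside the dimmest 40% of genes.

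Groups came from the labels. All 30 arrays entered 1 limma fit with a mean for each of 8 groups (limma 3.58.1 in R 4.3.3; 22 residual and 6.158 prior degrees of freedom), with two-sided tests and Benjamini-Hochberg adjustment over all genes. The fit was tested on simulated data with known changes. Array sets were taken as the combinations of diet and genotype. Only casein wild type was split further, into sets A and B, by the difference between the hybridization controls BioD and BioC. That difference overlapped between soy wild type (1.564 to 1.865) and casein HCM (1.587 to 1.746). Consensus correlation for the set as a random block was 0.167 (statmod 1.5.0). Replicate numbers did not pair samples: the correlation of deviations between same-numbered samples had a median of -0.002 and was over 0.1 in 25 of 99 pairs.

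Alternatives were all probe sets, the dimmest 40% of genes left out, added quantile normalization, centring, replicate and set blocks, no casein HCM arrays, each wild-type set alone, other probe sets and each array left out. The members, lists and tests were chosen with earlier results of these data known. Every member may be named in its class; values by array follow a rule on the highest and lowest members past the threshold in each comparison. The exact values shown for single arrays are rounded.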

Additional observations from a re-analysis of the deposited data

Results flagged for a closer look

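Single arrays stood far from the other 3 of their group in 6 of 174 combinations of gene and group (3.45%, where chance flags about 1 in 20). Male soy wild-type replicate 2 gave 4 of them: Ccng1 at 7.63 where the nearest other array read 8.54, Ccnt1 at 7.28 (nearest 7.41), Cdc34 at 7.96 (nearest 8.39) and Cdc42se1 at 6.45 (nearest 6.19). The others were Cdkn2d at 8.55 in male casein wild-type replicate 2 (nearest 8.34) and Plk1 at 7.45 in female casein wild-type replicate 2 (nearest 7.74).

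By limma's test of the interaction, the HCM difference was not the same on both diets for 17 of the 29 members followed by array. Of all genes 45.1% passed that test. The 29 were chosen partly by their interaction and HCM values, which can raise their share. Diet and array set cannot be told apart here. The HCM difference on casein minus that on soy was negative for Ccnd2 (-1.83), Plk1 (-1.22), Plk3 (-0.716), Cdc73 (-0.71), Mcm3 (-0.665), Plk4 (-0.655) and Ccna2 (-0.445). It was positive for Cdc26 (1.02), Cdc37 (0.773), Cdk5r2 (0.589), Cdk2ap1 (0.531), Cdc34 (0.505), Cdk1 (0.436), Cdk2ap2 (0.429), Cdkn2aipnl (0.39), Cdc23 (0.365) and Cdkn2d (0.297).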

How the results depend on the processing

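When the array set was fitted as a random block, the called members numbered 12 for the HCM mean (31 as reported), 2 for HCM on soy (22), 19 for casein in wild type (37) and 20 for the interaction (40). Without the casein HCM arrays only the HCM difference on soy could be fitted in place of the HCM mean. It called 19, of which 9 shared the direction of the reported HCM mean call and 3 opposed it. That fit differs from the HCM mean by design. The cause of the other changes was not tested. The share of all genes under these settings is not given beside the counts, which are not read as a result about these members. Other probe sets turned the sign for Ccni (-0.0425) and Cdc25c (0.0426) in the HCM mean, for Plk1 (-0.380) and Cdc23 (0.154) in HCM on soy, for Plk1 (0.0146 and 0.108) and Mcm5 (0.0130) in casein minus soy, and for Plk1 (0.372) in the interaction. The 21 genes with several probe sets had 25 probe sets besides the brightest. For casein minus soy, 12 of these belonged to genes whose brightest probe set was called. Of the 12, 2 were called in the same direction, 1 in the opposite and 9 not. Leaving out each array in turn gave 26 to 35 called members for the HCM mean, 36 to 43 for HCM on casein, 16 to 26 for HCM on soy, 41 to 48 for casein minus soy, 30 to 37 for casein in wild type, 43 to 48 for casein in HCM, 37 to 42 for the interaction and 0 for sex. The fit with the replicate number as a block called 31, 39, 21, 42, 36, 46, 40 and 0 in the same order; the numbers do not pair samples.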
